A study of Mus musculus with 15 samples.

Results

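The genes described here encode amino acid and monocarboxylate transporters of 8 solute carrier families (Slc1, Slc3, Slc6, Slc7, Slc16, Slc36, Slc38 and Slc43). They were found by gene symbol, and 51 such genes were listed among the 15701 genes of 2 RNA-Seq datasets. The knockout dataset listed 45 of them among 13893 genes and the knockdown dataset 48 among 15023, with 42 in both. The families were chosen by values of the knockdown dataset itself, because they hold Slc38a1, which was high after PCBP1 knockdown, and Slc16a12, which was low. Values and counts of that contrast are therefore given as a description of the transporters, with no p-value, and p-values are given for the knockout dataset alone.

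All cells were derived from NMuMG, a mouse mammary gland epithelial line. The knockdown dataset compared 2 samples labelled NMuMG, without treatment, with 2 samples of cells carrying an shRNA against PCBP1 (shPCBP1), an RNA-binding protein. The study's text calls its control cells shSCR, for a scrambled shRNA, and the label is used here. In the knockout dataset every line carried the PCBP1 shRNA. The controls were 4 shPCBP1 lines, namely the unaltered one and CT clones 1 to 3, which had received Cas9 without a gene-specific guide. FAM3C KO and LIFR KO were represented by 3 clones each, and a single double KO lacked both genes. FAM3C is a secreted protein and LIFR the leukemia inhibitory factor receptor, and the comparison asked which transcripts depend on them in shPCBP1 cells. Each knockout was made by excision of a short coding fragment and grown from a discrete colony, so each library stands for 1 clone, and the p-values measure the spread between clones. Nothing in the labels says that the 2 samples of a knockdown group came from separate cultures.

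Transporters of these families set which amino acids, lactate, creatine and related solutes enter and leave a cell. Slc7 light chains reach the plasma membrane as heterodimers with an Slc3 heavy chain and mostly exchange 1 amino acid for another. Slc38 and Slc6 proteins couple uptake to sodium and Slc36a1 to protons, whereas the lactate carriers among the Slc16 proteins move lactate together with a proton. Proliferating and secretory mammary epithelium draws on many of them at once, for glutamine, leucine, cystine and lactate.

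Expression is given as the deposited normalized CPM (read counts corrected for library size). Values of 2 libraries of a group are given in the order of their replicate numbers. In the knockdown dataset 0.0001 CPM stands in for 0, and the depth behind its values is unknown. In the knockout dataset, if the lowest value of a library stands for 1 read, the totals were 16031859 to 46901675 reads. The 2 tables were normalized separately, so no level was compared between them. The targeted Pcbp1 transcript stood at 287 and 312 CPM in NMuMG and at 14.1 and 14.2 CPM in shPCBP1. In the knockout dataset Pcbp1 was at 32.9 to 37.1 CPM in the shPCBP1 lines and 33.6 to 36 CPM in FAM3C KO. LIFR KO clones 1 to 3 held 39.5, 22.5 and 19.9 CPM of Pcbp1 and the double KO 20.6 CPM, and the part of this in the LIFR KO results was not tested. Fam3c was at 47.0 to 59.4 CPM in the shPCBP1 lines and at 26.4 to 42.9 CPM in the FAM3C KO clones. Lifr was at 25.8 to 40.2 CPM in the shPCBP1 lines, while LIFR KO clones 1 to 3 held 34.9, 29.3 and 14.6 CPM. Its transcript level thus does not check the label of LIFR KO clones 1 and 2. FAM3C KO clones 1 to 3 held 13.5, 10.5 and 19.2 CPM of Lifr, less than LIFR KO clones 1 and 2, and the double KO held 4.36 CPM. The log2 fold change of Lifr in FAM3C KO was -1.18 (SE 0.302, adjusted p = 0.175 by limma). Of 6 epithelial markers 4 were listed in each dataset, with Krt8 and Krt18 abundant in every library. Cldn4 was near 0 in the knockdown dataset and Cldn7 in the knockout dataset, and Epcam was listed in neither. Endothelial markers reached at most 2.00 CPM in sum in any library. Immune markers summed to 1.15 to 1.70 CPM in the knockdown dataset and to 4.55 to 11.2 CPM in the knockout dataset. Most of the latter was Cd68, at 4.29 to 10.8 CPM.

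LIFR KO clones 2 and 3 and the double KO stood apart from the other libraries. Over 12603 genes their deviation from the shPCBP1 mean was correlated with the GC content of the transcript (Spearman's rho of -0.76, -0.74 and -0.70), against 0.07 in LIFR KO clone 1 and -0.29 to 0.24 elsewhere. The same was seen over the 38 transporter genes tested, where rho was -0.77 in LIFR KO clone 2, -0.54 in clone 3, -0.54 in the double KO and -0.01 in clone 1. For the 19 transporters at or above the median GC content of 51.2%, the median deviation was -0.85 on the log2 scale in clone 2, -0.68 in clone 3, -0.54 in the double KO and -0.17 in clone 1. Clones 2 and 3 therefore enter each LIFR KO result together with this trend, and genes called there are also given by clone or in a fit without clones 2 and 3. Such a fit leaves 1 LIFR KO library, takes its spread from the other groups and assumes that the lone library varies as they do.

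**Figure D1:**
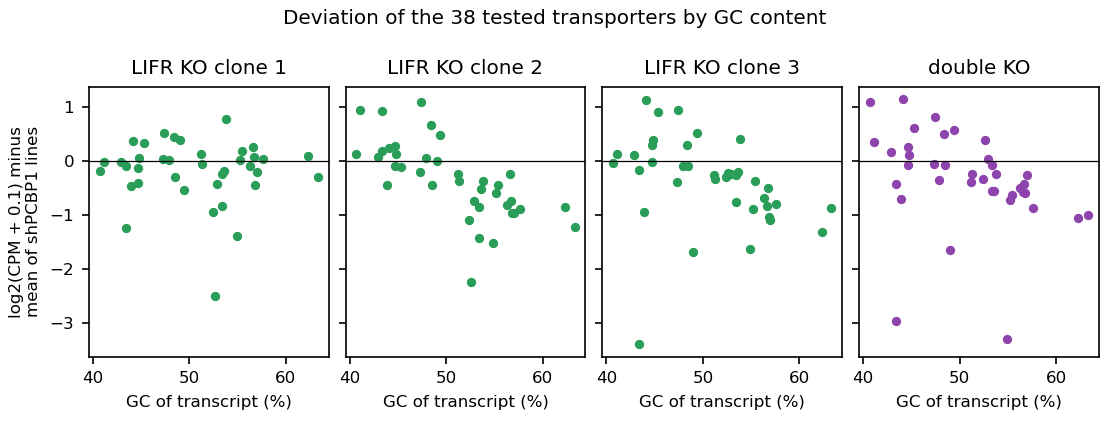
Each point is 1 of the 38 tested transporter genes, with the GC content of its longest transcript (%) on the x axis and the library's log2(CPM + 0.1) minus the mean of the 4 shPCBP1 lines on the y axis, for the 3 LIFR KO clones and the double KO. The points slope downward in LIFR KO clones 2 and 3 and the double KO (rho of -0.77, -0.54 and -0.54), and show no slope in clone 1 (rho of -0.01).

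The strongest contrast between NMuMG and shPCBP1 cells was a near-complete switch of Slc38a1 and Slc16a12. Slc38a1 (ENSMUSG00000023169, chr15:96571418-96642913 of GRCm38, minus strand) encodes a sodium-coupled carrier of glutamine and other neutral amino acids. It stood at 0.0532 and 0.0190 CPM in NMuMG and at 59.4 and 62.1 CPM in shPCBP1. Slc16a12 (ENSMUSG00000009378, chr19:34668403-34747289, minus strand), a creatine transporter of the monocarboxylate family, stood at 80.7 and 78.2 CPM in NMuMG and at 0.502 and 0.499 CPM in shPCBP1. The groups did not overlap for either gene, which is no test, since these values chose the families. In bulk RNA, fewer expressing cells and less RNA per cell cannot be told apart. The log2 difference, on the log2(CPM + 0.1) scale that understates the change of low values, was 8.82 (SE 0.135) for Slc38a1 and -7.05 (SE 0.0764) for Slc16a12. With a pseudocount of 1 CPM in place of 0.1 these became 5.90 and -5.74.

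Slc38a1 lies beside related genes. Slc38a2 (chr15:96687392-96699730) begins 44.5 kb beyond it and Slc38a4 (chr15:96994820-97055956) a further 295.1 kb on, all on the minus strand. Slc38a4, another sodium-coupled carrier of neutral amino acids, was listed at 0.0001 CPM in both NMuMG libraries and stood at 2.20 and 2.18 CPM in shPCBP1, so no fold is given. Slc38a2, whose product carries neutral amino acids and is known for its response to amino acid starvation, lies between them and differed far less, at 203 and 202 CPM in NMuMG and 259 and 254 CPM in shPCBP1 (log2 difference 0.34, SE 0.0215). Thus the outer genes of the group went from near 0 to expressed, while the middle one was abundant in both groups. A second adjacent pair was Slc6a18 and Slc6a19 on chromosome 13, 1.7 kb apart. Slc6a19, which encodes a sodium-coupled neutral amino acid carrier of gut and kidney, stood at 5.61 and 5.15 CPM in NMuMG and at 0.591 and 0.277 CPM in shPCBP1 (log2 difference -3.42, SE 0.233). Slc6a18 was low throughout, at 0.797 and 0.792 CPM against 0.0539 and 0.0371 CPM, and did not pass the filter on low values.

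Promoter sequence from RefSeq (GRCm38.p6) was at hand for 34 of the 51 genes. The 250 bases before the start of Slc16a12 (chr19:34747329-34747578, minus strand, written 5′ to 3′) are shown because this gene had the largest drop, with each CG pair in capitals, 11 in all, against a median of 6 over 32851 promoters (quartiles 2 and 16).
Slc16a12: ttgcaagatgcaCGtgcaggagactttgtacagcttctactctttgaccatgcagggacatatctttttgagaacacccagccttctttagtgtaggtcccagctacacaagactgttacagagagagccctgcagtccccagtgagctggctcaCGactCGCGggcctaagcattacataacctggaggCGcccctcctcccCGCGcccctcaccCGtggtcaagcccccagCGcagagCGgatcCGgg

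The 3 promoters listed for Slc38a4 held 3, 5 and 5 CG pairs in the same span. Entries for Slc38a1, Slc7a4 and Slc7a5 were not in the table. The letters TGATGCAA, the C/EBP-ATF composite motif of the amino acid response, were searched on both strands from 250 bases before to 50 bases after each start. They occurred in promoters of Slc1a4, Slc7a7 and Slc7a11, and in 0.89% of all promoters. Slc7a11 held the motif on each strand, 66 and 47 bases before its start, and that stretch (chr3:50443637-50443695, minus strand) is shown with the matches in capitals.
Slc7a11: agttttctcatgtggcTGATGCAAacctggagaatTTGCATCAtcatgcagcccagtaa

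The STAT motif TTCNNNGAA, searched the same way because the study follows STAT3 signaling, occurred in 8.30% of all promoters and in those of Slc1a3, Slc7a1, Slc7a11 and Slc38a9. The 3 matches in genes that passed the filter are shown with the motif in capitals: Slc7a1 (chr5:148392937-148392977, minus strand), Slc7a11 (chr3:50443772-50443812, minus strand) and Slc38a9 (chr13:112660674-112660714, plus strand).
Slc7a1: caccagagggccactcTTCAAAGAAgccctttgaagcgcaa
Slc7a11: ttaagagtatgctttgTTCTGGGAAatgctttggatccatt
Slc38a9: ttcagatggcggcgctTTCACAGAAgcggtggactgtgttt

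None of the 3 genes with a printed STAT motif passed the test in FAM3C KO or LIFR KO cells (limma, adjusted p of 0.792, 0.803 and 0.979 in FAM3C KO and 0.159, 0.944 and 0.412 in LIFR KO for Slc7a1, Slc7a11 and Slc38a9). At an adjusted p under 0.07, 0.309% of all genes passed in FAM3C KO and 6.47% in LIFR KO. With so few calls, nothing about STAT3 is read from these 3 genes.

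A mean of 0.5 CPM or more was reached by 32 transporter genes, of which 15 were higher and 15 lower in shPCBP1 when all genes were held to an adjusted p under 0.07, the study's threshold. Of all 11384 genes tested, 42.1% were higher and 38% lower by the same rule. When a fold of 1.5 was also required, 9 were higher and 8 lower, against 16.0% and 15.1% of all genes. The median log2 difference was 0.006 over the transporters and 0.025 over all genes. These counts are no test of the transporters, and nothing is read from them, since the contrast chose the families. The other 16 genes did not pass the filter, and Slc6a7 was listed at 0.0001 CPM in all 4 libraries.

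**Figure D2:**
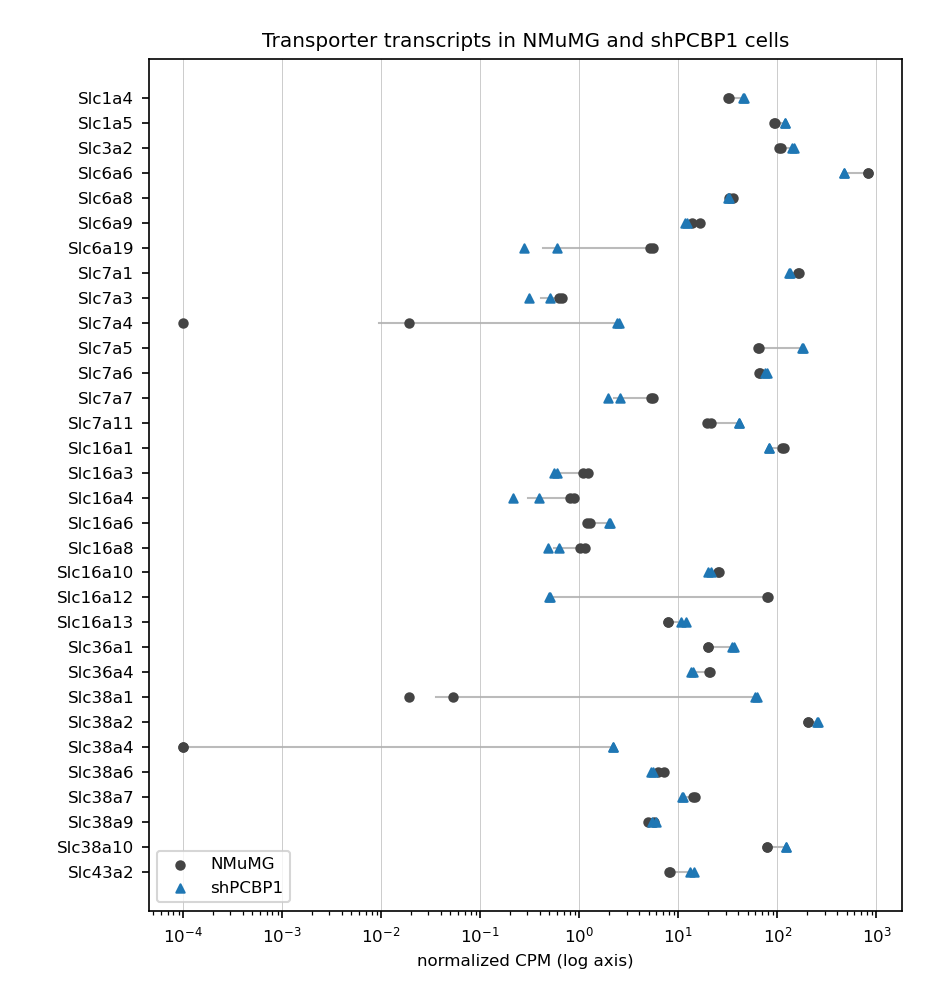
Normalized CPM on a log axis for the 32 transporter genes tested in the knockdown dataset, with NMuMG libraries as circles, shPCBP1 libraries as triangles and a gray line between the group means; 0.0001 CPM stands in for 0. Slc38a1 runs from 0.0532 or less to 59.4 or more and Slc16a12 from 78.2 or more to 0.502 or less, while most other genes differ by a small part of the axis.

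Summed over its genes, the Slc38 family went from 307 and 308 CPM in NMuMG to 465 and 464 CPM in shPCBP1. The Slc7 family went from 324 and 321 CPM to 437 and 433 CPM, and Slc3 from 105 and 109 CPM to 141 and 147 CPM. Slc6 and Slc16 were lower in shPCBP1, with Slc6 at 873 and 871 CPM against 516 and 515 CPM, and Slc16 at 231 and 233 CPM against 119 and 119 CPM. The Slc16 and Slc38 sums include the genes by which the families were chosen, so they are no separate result. Slc16a12 had a mean of 79.4 CPM in NMuMG and 0.5 CPM in shPCBP1, and Slc38a1 0.0361 and 60.7 CPM. The 5 mesenchymal markers summed to 535 to 556 CPM in NMuMG and 1310 to 1345 CPM in shPCBP1, and their part in these values was not tested. The sum over all families differed little, at 2012 and 2019 CPM in NMuMG and 1908 and 1905 CPM in shPCBP1. Replicates lay close together: across the 32 genes, paired libraries of a group differed by a median of 0.051 (absolute log2) in NMuMG and 0.063 in shPCBP1.

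Among the heterodimeric carriers, the heavy chain Slc3a2 (CD98 heavy chain) was at 105 and 109 CPM in NMuMG and 141 and 147 CPM in shPCBP1. Its partner Slc7a5 (LAT1, the leucine and large neutral amino acid exchanger) stood at 65.7 and 64.1 CPM and at 179 and 180 CPM (log2 difference 1.47, SE 0.0246). Slc7a11, the cystine and glutamate exchanger, stood at 19.5 and 21.5 CPM and at 40.6 and 41.2 CPM (log2 difference 1.00, SE 0.0471). These 3 transcripts were higher in both shPCBP1 libraries than in both NMuMG libraries, which is no test, since the contrast chose the families. The share of all genes that separated so was not counted, but 42.1% were higher at an adjusted p under 0.07. Slc7a6 and Slc7a7 encode the y+LAT exchangers of cationic and neutral amino acids. Slc7a6 was at 66.9 and 65.8 CPM in NMuMG and 77.7 and 75.7 CPM in shPCBP1, whereas Slc7a7 was at 5.27 and 5.52 CPM and at 1.94 and 2.58 CPM (log2 difference -1.23, SE 0.133). The 2 y+LAT transcripts thus lay on opposite sides of NMuMG. The other heavy chain, Slc3a1, was near 0 at 0.355 and 0.282 CPM in NMuMG and listed at 0.0001 CPM in shPCBP1, and its usual partner Slc7a9 was under 0.25 CPM in every library of the knockdown dataset.

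Slc7a4, placed by sequence with the cationic amino acid transporters, was listed at 0.0001 CPM and stood at 0.0190 CPM in the 2 NMuMG libraries. In shPCBP1 it was at 2.53 and 2.38 CPM, low in absolute terms but well apart (log2 difference 4.55, SE 0.185, and 1.77 with a pseudocount of 1 CPM). Slc7a1, the main arginine and lysine carrier of the family, was at 165 and 163 CPM in NMuMG and 134 and 131 CPM in shPCBP1. The glutamine and neutral amino acid exchangers Slc1a5 and Slc1a4 were both moderately higher in shPCBP1. Slc1a5 (ASCT2) went from 91.9 and 94.9 CPM to 119 and 120 CPM, and Slc1a4 (ASCT1) from 31.9 and 32.5 CPM to 45.7 and 45.4 CPM. The glutamate carriers Slc1a2, Slc1a3 and Slc1a7 did not exceed 0.655 CPM in any library.

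Slc6a6, the taurine transporter, was the most abundant transcript of the families per length in NMuMG, at 132 CPM per kb of its longest transcript, followed by Slc3a2 at 37.9, Slc1a5 at 33.3 and Slc38a2 at 33.1 CPM per kb. It stood at 819 and 813 CPM in NMuMG and at 471 and 471 CPM in shPCBP1 (log2 difference -0.79, SE 0.0193), and made up most of the change in the Slc6 sum. The creatine transporter Slc6a8 was at 32.8 and 35.3 CPM in NMuMG and 32.4 and 31.6 CPM in shPCBP1. Its values lay close together, unlike those of Slc16a12, the other creatine transporter of the set.

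Among the monocarboxylate transporters, Slc16a1 (MCT1, which moves lactate in either direction) was at 112 and 116 CPM in NMuMG and 82.3 and 81.5 CPM in shPCBP1. The other lactate carriers were scarce. Slc16a3 (MCT4) was at 1.22 and 1.09 CPM and at 0.556 and 0.591 CPM, and Slc16a8 (MCT3) at 1.13 and 1.02 CPM and at 0.627 and 0.481 CPM. All 3 lactate carriers were lower in shPCBP1, and Slc16a7 (MCT2) was not listed in the knockdown dataset. Slc16a6 was higher in shPCBP1, at 1.20 and 1.29 CPM against 1.99 and 2.03 CPM.

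The proton-coupled Slc36a1, found on lysosomes, was at 19.9 and 20 CPM in NMuMG and 36.6 and 34.9 CPM in shPCBP1 (log2 difference 0.84, SE 0.0404). Its relative Slc36a4, a carrier of proline and tryptophan, went the other way, from 20.5 and 20.9 CPM to 14 and 13.3 CPM (log2 difference -0.60, SE 0.0501). Slc43a2 (LAT4, a uniporter of branched-chain and other neutral amino acids) was at 7.98 and 8.25 CPM and at 14.4 and 13 CPM. Slc38a9, a lysosomal arginine sensor, was at 4.96 and 5.64 CPM in NMuMG and 5.36 and 6.02 CPM in shPCBP1, with overlapping groups.

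In the knockout dataset, all lines of which carried the PCBP1 shRNA, 38 transporter genes passed the filter. Per length the leading transcripts of the shPCBP1 lines were Slc38a2 at 122, Slc6a6 at 97.5, Slc3a2 at 70.9, Slc7a5 at 68.5 and Slc1a5 at 50.7 CPM per kb. Slc38a1 stood at 156 CPM in the unaltered line and, for CT clones 1 to 3, at 120, 157 and 138 CPM. Slc16a12 stood at 0.624, 0.341, 1.01 and 0.206 CPM in the same order. Thus Slc38a1 was abundant and Slc16a12 scarce in every shPCBP1 line.

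The spread among the 4 shPCBP1 lines set what could be seen. The highest line was less than 1.5 times the lowest for 24 of the 38 genes, with a median ratio of 1.40, and at least 3 times for 4 genes. Among them were Slc16a12 (ratio 4.90), Slc38a4 (4.64) and Slc16a6 (3.01). Slc38a4, which appeared on PCBP1 knockdown, ranged from 0.584 CPM in CT clone 3 to 2.71 CPM in CT clone 2. Its level was therefore not steady among lines with the same shRNA.

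**Figure D3:**
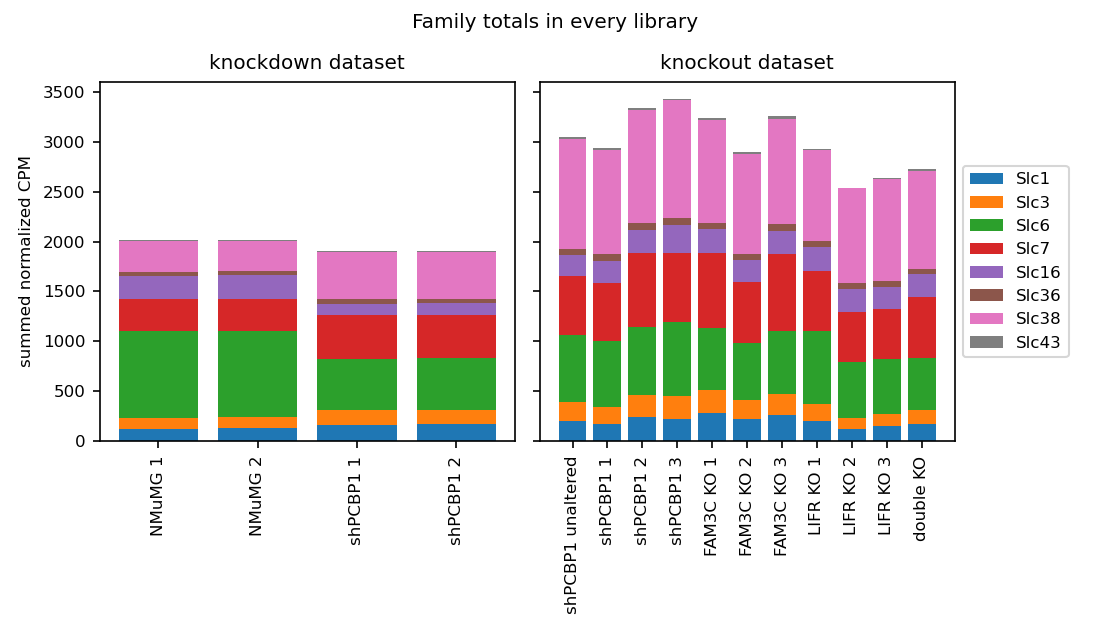
Stacked bars give the summed normalized CPM of each family in every library, with the knockdown dataset on the left and the knockout dataset on the right; the 2 were normalized separately. The Slc6 part shrinks from 873 to 515 CPM and the Slc38 part grows from 307 to 464 CPM between NMuMG and shPCBP1, while the knockout libraries total 2540 to 3430 CPM.

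Slc7a4 was the single transporter gene that passed the test in FAM3C KO, where it fell (1 of 38, with 0 genes higher). Of all 12621 genes tested, 0.222% were lower and 0.0872% higher in FAM3C KO by the same rule, and 3 transporter genes had an unadjusted p under 0.05, as did 10.2% of all genes. Slc7a4 stood at 3.68, 3.05, 4.73 and 3.30 CPM in the unaltered line and CT clones 1 to 3, at 1.37, 1.20 and 0.576 CPM in FAM3C KO clones 1 to 3. LIFR KO clones 1 to 3 held 1.34, 1.21 and 1.11 CPM. Each knockout clone was thus lower than any shPCBP1 line. In FAM3C KO the log2 fold change of -1.78 (SE 0.287) had an adjusted p of 0.0422 by limma, and the exact permutation test gave p = 0.0286 (two-sided, n = 4 and 3), the smallest that this design allows. The adjusted p rose to 0.098 to 0.163 when any single library of the comparison was left out, so the call rests on having all 7, while the direction stayed the same in all 7 fits.

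In LIFR KO, Slc7a4 and Slc6a8 fell (2 of 38, with 0 higher). Over all genes 5.55% were lower and 0.911% higher, and 16 transporter genes had an unadjusted p under 0.05, as did 35.7% of all genes. The log2 fold change of Slc7a4 was -1.51 (SE 0.287, adjusted p = 0.0380 by limma, exact permutation p = 0.0286). It was -1.06 after GC correction (adjusted p = 0.130 by limma), where the call was lost. With clone 1 as the only LIFR KO library it was -1.37, given as an effect size only, since 1 library has no spread of its own. FAM3C KO and LIFR KO share the 4 shPCBP1 lines as controls, so their values are not independent of each other. Between FAM3C KO and LIFR KO the log2 difference of Slc7a4 was -0.27 (SE 0.307, adjusted p = 0.550 by limma). The double KO held the lowest value, 0.281 CPM, as a single library with no test.

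Slc6a8, the creatine transporter, stood at 47.7, 40.0, 41.6 and 56.8 CPM in the shPCBP1 lines, against 34.1, 23.8 and 22.6 CPM for LIFR KO clones 1 to 3. The groups did not overlap, and clones 2 and 3 lay lowest. The log2 fold change was -0.80 (SE 0.164, adjusted p = 0.0392 by limma, exact permutation p = 0.0286). Slc6a8 had a GC content of 56.8%, above the median of 51.2% over the transporters tested. After GC correction the log2 fold change was -0.28 (adjusted p = 0.238 by limma). In clone 1 alone it was -0.43, given as an effect size only. In FAM3C KO the gene stood at 46.1, 45.2 and 49.6 CPM, inside the range of the shPCBP1 lines.

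The number of transporter genes called in LIFR KO hung on the clones. Without clone 1, 21 were called, 3 higher and 18 lower, when 57.3% of all genes were called as well. Without clone 3 there were 4, with 5.70% of all genes called. Without clone 2, without any 1 of the 4 shPCBP1 lines or after GC correction, there were 0, with 0.0396% to 0.380% of all genes called. The 4 listed epithelial markers summed to 888 to 1490 CPM in LIFR KO and 1751 to 2156 CPM in the shPCBP1 lines, and the 5 mesenchymal markers to 1273 to 1930 CPM and 1768 to 2015 CPM, and their part in these values was not tested. The median log2 fold change was -0.270 over the transporters and -0.164 over all genes. Slc3a2 (53.4% GC) illustrates the split, at 192, 161, 212 and 232 CPM in the shPCBP1 lines and 168, 110 and 117 CPM for LIFR KO clones 1 to 3. Clone 1 sat among the shPCBP1 lines and clones 2 and 3 lay below them, and the adjusted p of 0.0701 by limma just missed the threshold.

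**Figure D4:**
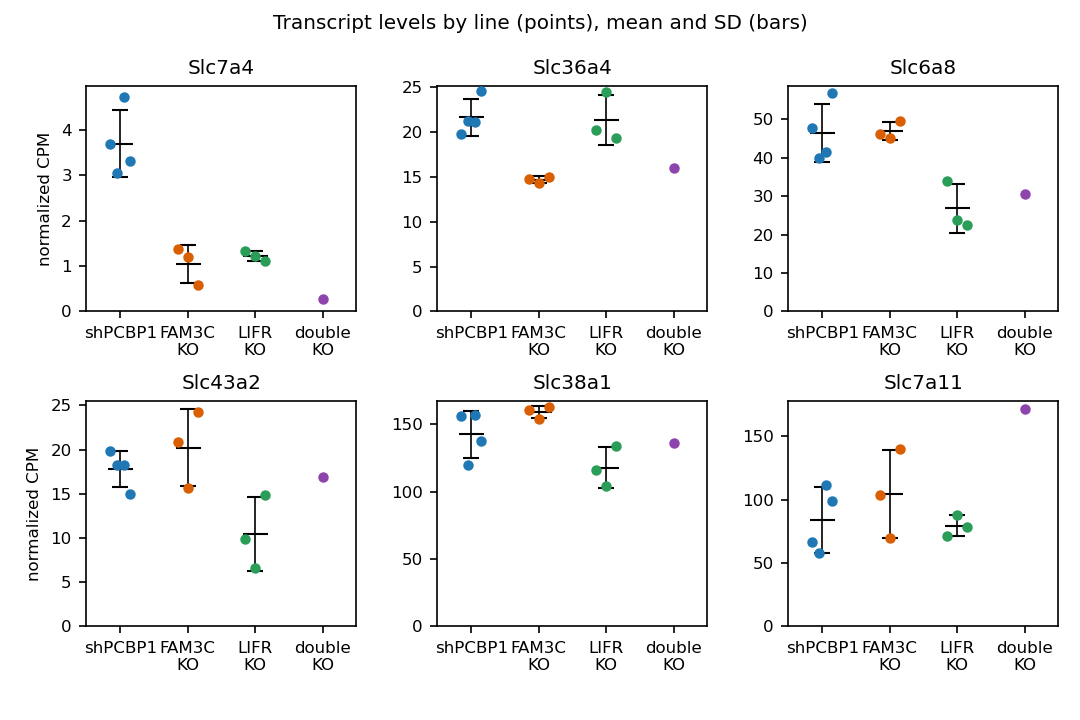
Normalized CPM of 6 transporter genes by line in the knockout dataset, with points for lines, bars for the mean and SD of a group, and the single double KO library without a bar; each y axis starts at 0. Slc7a4 lies between 0.576 and 1.37 CPM in the single knockouts and between 3.05 and 4.73 CPM in the shPCBP1 lines, and Slc36a4 is low in the FAM3C KO clones (14.3 to 15 CPM) but not in the LIFR KO clones (19.3 to 24.5 CPM).

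Groups that do not overlap give a second view that uses no model. In FAM3C KO, 4 transporter genes were lower in all clones than in all lines (Slc6a6, Slc7a4, Slc36a4 and Slc38a2) and 2 were higher (Slc3a1 and Slc38a6), against 12.5% and 10.1% of all genes tested. In LIFR KO, 7 were lower (Slc1a4, Slc6a8, Slc7a2, Slc7a4, Slc7a7, Slc36a1 and Slc43a2) and 2 higher (Slc3a1 and Slc7a15), against 13.2% and 3.95% of all genes.

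Slc36a4 differed little between the FAM3C KO clones. The shPCBP1 lines held 19.8, 21.2, 21.1 and 24.6 CPM and FAM3C KO clones 1 to 3 held 14.8, 14.3 and 15 CPM. The log2 fold change was -0.55 (SE 0.119), and the adjusted p of 0.110 by limma missed the threshold (exact permutation p = 0.0286). It passed in 2 of 18 alternative fits, with the 2 groups alone (adjusted p = 0.0132 by limma) and after GC correction (adjusted p = 0.0544). These fits called 1040 and 237 of all genes, against 39 in the main fit. The adjusted p was 0.249 with the replicate block and 0.141 to 0.365 when any single library was left out. LIFR KO clones 1 to 3 held 20.3, 24.5 and 19.3 CPM, overlapping the shPCBP1 lines, and the double KO held 16.0 CPM. The taurine transporter Slc6a6 stood at 590, 591, 592 and 639 CPM in the shPCBP1 lines and at 518, 501 and 539 CPM in FAM3C KO (log2 fold change -0.22, SE 0.110, adjusted p = 0.556 by limma). Slc3a1, the heavy chain of the cystine and basic amino acid carrier, was scarce at 0.413, 0.291, 0.538 and 0.542 CPM in the shPCBP1 lines and at 0.977, 1.29 and 0.769 CPM in FAM3C KO (log2 fold change 1.03, SE 0.302, adjusted p = 0.239 by limma).

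Directly compared, FAM3C KO and LIFR KO differed in 5 transporter genes, 4 of them higher in FAM3C KO (Slc1a4, Slc3a2, Slc6a8 and Slc43a2) and 1 lower (Slc36a4). Over all genes 6.83% were higher and 1.45% lower, and 14 transporter genes had an unadjusted p under 0.05, as did 29.3% of all genes. Slc43a2 had the largest difference of the 5. It stood at 20.8, 15.6 and 24.2 CPM in FAM3C KO and at 9.89, 6.59 and 14.9 CPM in LIFR KO (log2 difference 1.00, SE 0.268, adjusted p = 0.0588 by limma). Slc1a4 stood at 99.1, 62.3 and 88.4 CPM and at 48.1, 38.7 and 54.8 CPM (log2 difference 0.81, SE 0.207, adjusted p = 0.0531). The clones of the 2 groups did not overlap for any of the 5 genes. This adds no support, since the same comparison picked these genes, and the share of all genes for which it held was not counted. The log2 difference was 0.83 (SE 0.175, adjusted p = 0.0387) for Slc6a8, 0.69 (SE 0.182, adjusted p = 0.0573) for Slc3a2 and -0.53 (SE 0.128, adjusted p = 0.0460) for Slc36a4.

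These differences also depended on the libraries. With clone 1 as the only LIFR KO library, Slc43a2 had a log2 difference of 1.00 (adjusted p = 0.0433), Slc6a6 passed the threshold (-0.35, adjusted p = 0.0548) and the other 4 did not, with Slc36a4 at -0.47 (adjusted p = 0.0741) and Slc3a2 at 0.31 (adjusted p = 0.388), while 9.46% of all genes passed. After GC correction none of the 5 passed and Slc6a6 did (-0.34, adjusted p = 0.0658), with 0.587% of all genes. Without LIFR KO clone 1, 19 transporter genes were called, and 52.9% of all genes. Without LIFR KO clone 2 or without any 1 FAM3C KO clone, 0 were.

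**Figure D5:**
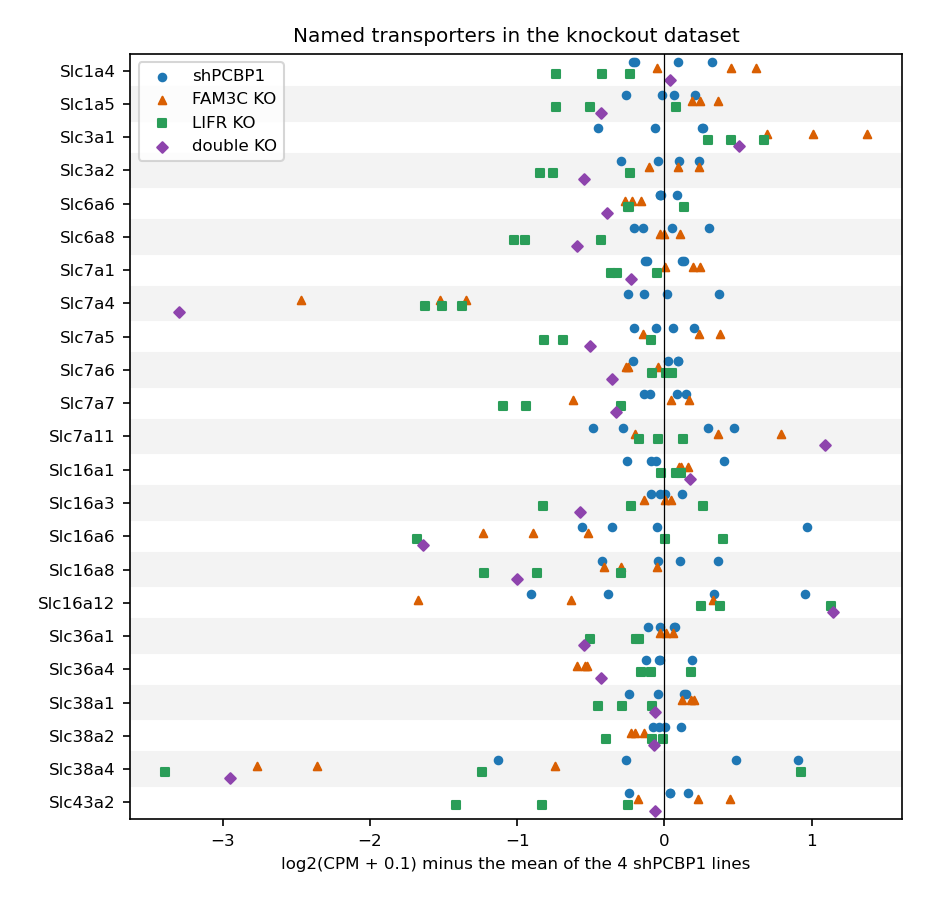
For the 23 named transporter genes tested in the knockout dataset, each point gives the log2(CPM + 0.1) of 1 library minus the mean of the 4 shPCBP1 lines, by group. Slc7a4 lies left of the shPCBP1 lines in all 7 knockout libraries, Slc36a4 is lowest in the 3 FAM3C KO clones, and Slc38a1 stays within 1 log2 unit of the lines in all libraries.

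Neither gene that marks the families on PCBP1 knockdown was called in a knockout. Slc38a1 stood at 161, 154 and 163 CPM in FAM3C KO clones 1 to 3 (log2 fold change 0.16, SE 0.121, adjusted p = 0.757 by limma) and at 116, 104 and 134 CPM in LIFR KO (-0.28, SE 0.121, adjusted p = 0.134). Slc16a12 stood at 0.620, 0.0800 and 0.269 CPM in FAM3C KO (-0.66, SE 0.562, adjusted p = 0.807) and at 0.644, 0.582 and 1.16 CPM in LIFR KO (0.59, SE 0.562, adjusted p = 0.455). Both groups overlapped the shPCBP1 lines for Slc16a12. Slc38a4 stood at 2.00, 1.15, 2.71 and 0.584 CPM in the shPCBP1 lines, at 0.797, 0.120 and 0.192 CPM in FAM3C KO and at 0.536, 2.75 and 0.0429 CPM in LIFR KO (limma, adjusted p = 0.505 and 0.335). LIFR KO clones 2 and 3 held the highest and the lowest value of the dataset.

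Slc7a5 stood at 230, 208, 276 and 250 CPM in the shPCBP1 lines, at 311, 217 and 282 CPM in FAM3C KO and at 225, 136 and 149 CPM in LIFR KO (limma, log2 fold change 0.16 and -0.53, adjusted p = 0.891 and 0.0948). Slc7a11 stood at 66.6, 57.6, 112 and 99.2 CPM, at 104, 70.2 and 140 CPM and at 71.6, 88.3 and 78.5 CPM in the same order. Its 4 shPCBP1 lines already differed by a ratio of 1.94, and all 3 groups overlapped. The lactate carrier Slc16a1 stood at 114, 128, 131 and 180 CPM in the shPCBP1 lines, with the single knockout clones between 134 and 152 CPM. Slc16a3 was at 7.97 to 9.26 CPM in the shPCBP1 lines, 7.73 to 8.77 CPM in FAM3C KO and 4.76 to 10.2 CPM in LIFR KO. Slc16a8 was at 3.13 to 5.46 CPM in the shPCBP1 lines against 3.43, 1.75 and 2.27 CPM for LIFR KO clones 1 to 3 (log2 fold change -0.80, adjusted p = 0.0836 by limma, 63.3% GC). Slc16a7 was listed at or near the lowest value of the library in most lines and did not pass the filter.

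Partner proteins and sensors of these carriers were followed as a list of 34 symbols, some of them older and newer names of the same gene. In the knockdown dataset 27 were listed and 24 tested, of which 5 were higher and 12 lower in shPCBP1 by the rule that gave 42.1% and 38% of all genes, a description as for the transporters. Ldha, which makes lactate, was at 940 and 935 CPM in NMuMG and at 662 and 649 CPM in shPCBP1, and Bsg, the chaperone of Slc16a1 and Slc16a3, at 166 and 168 CPM and at 148 and 145 CPM. Sesn3, of the sestrin family, was at 89.2 and 92.1 CPM and at 35.1 and 36.8 CPM. The glutamine synthetase Glul was at 164 and 171 CPM in NMuMG and 110 and 110 CPM in shPCBP1, while the glutaminase Gls2 was higher, at 1.52 and 1.72 CPM against 3.19 and 3.64 CPM. In the knockout dataset 24 of 25 listed were tested. None was called in FAM3C KO, 2 fell in LIFR KO, and 3 were higher in FAM3C KO than in LIFR KO, against 5.55% of all genes lower in LIFR KO and 6.83% higher in the direct comparison. The 2 were Castor2 (log2 fold change -0.60, SE 0.114, adjusted p = 0.0380 by limma), a homolog of the arginine sensor Castor1, and Sesn2 (-0.67, SE 0.164, adjusted p = 0.0529), a leucine sensor and stress-response gene. Castor2 stood at 31.4, 31.9, 29.5 and 30.9 CPM in the shPCBP1 lines, with LIFR KO clones 1 to 3 at 21.2, 17.3 and 22.9 CPM. All 3 clones lay below the shPCBP1 lines. The log2 fold change was -0.54 with clone 1 as the only LIFR KO library but -0.23 after GC correction (adjusted p = 0.325 by limma). Sesn2 stood at 49.2, 46.5, 57.9 and 55.1 CPM in the shPCBP1 lines against 44.1, 27.3 and 28.7 CPM for LIFR KO clones 1 to 3. Clone 1 thus lay close to the lowest shPCBP1 line. The log2 fold change was -0.24 with clone 1 alone and -0.06 after GC correction (adjusted p = 0.756 by limma). The 3 that separated FAM3C KO from LIFR KO were Castor2 (log2 difference 0.63), Sesn2 (0.91) and Gls2 (0.84), with adjusted p of 0.0366, 0.0366 and 0.0488 by limma. After GC correction none of the 3 passed (limma, adjusted p of 0.201, 0.114 and 0.392). With clone 1 as the only LIFR KO library the log2 differences were 0.57, 0.47 and 0.83 in the same order.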

How the data were processed

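RNA was sequenced after rRNA depletion as directional paired-end libraries. The authors trimmed the reads, aligned them to GRCm38 (mm10) with Bowtie2 in Partek Flow, ran DESeq2 and deposited normalized CPM per gene; the log2 values used here were computed from that deposited CPM. The deposited pooled columns, group means and a fold-change ratio, were not used. In the knockout dataset, 86.4% to 88.2% of values under 60 times the lowest value of a library were whole multiples of it (within 0.05). Whole reads were thus not recovered for nearly all genes, and no count test was run. Genes averaging 0.5 CPM or more were fitted, as log2(CPM + 0.1), with limma 3.58.1 (R 4.3.3, mean-variance trend), the shPCBP1, FAM3C KO and LIFR KO groups together and without the double KO. Benjamini-Hochberg adjustment ran over all genes tested, at an adjusted p under 0.07. Exact permutation tests were two-sided. The fit was tested on simulated data. Coordinates, transcript lengths and GC content came from GENCODE M21 (GRCm38), joined by gene ID. Gene starts matched it for 14269 of 14795 genes of the knockdown table but for 302 of 13870 of the knockout table, whose own coordinates were therefore not used.

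The members, lists and rules were chosen with earlier results of these data known. The genes named were Slc38a1, Slc16a12, members called in a knockout comparison, the 8 largest rises and falls on knockdown reaching 1 CPM, the most abundant member of each family, the heavy and light chains past the filter and the lactate carriers. Others are given as ranges or counts, and those singled out beyond this rule (Slc6a18, Slc38a9 and other partners or neighbors) were chosen after their values were seen. Some genes are not reported here by name. Alternatives were other scalings, filters, thresholds and pseudocounts, the 2 groups alone, a replicate block, GC correction (loess, span 0.3) and leave-outs.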

Additional observations from a re-analysis of the deposited data

Results flagged for a closer look

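The 5 transporter genes whose FAM3C KO and LIFR KO clones differed at an adjusted p under 0.07 in a direct limma comparison had log2 differences, FAM3C KO minus LIFR KO, of 0.81 for Slc1a4, 0.69 for Slc3a2, 0.83 for Slc6a8, -0.53 for Slc36a4 and 1.00 for Slc43a2. In the double KO, a single library outside the comparisons, Slc7a11 stood at 172 CPM, above the highest of the other 10 libraries of the knockout dataset (140 CPM, FAM3C KO clone 3). Slc16a12 in the same library stood at 1.17 CPM, just above 1.16 CPM in LIFR KO clone 3. The part of the GC trend of the double KO in these values was not tested. Among the 4 shPCBP1 lines, Slc6a6 in CT clone 3, at 639 CPM, was flagged as apart from the other lines, which lay close together at 590, 591 and 592 CPM. Its highest line was still only 1.08 times its lowest, against a median ratio of 1.40 over the 38 genes tested. Of 25 named genes checked for such a flag, 1 stood out, and chance flags about 1 group in 20.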

How the results depend on the processing

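In FAM3C KO, 1 transporter gene was called, 2 with the 2 groups alone or after GC correction, and 0 with the replicate block, with the block and GC correction, and in each leave-one-out fit (0 to 0). In LIFR KO the count of 2 became 3 with quantile normalization or a filter of 1 CPM and 1 with the 2 groups alone. It became 0 with the replicate block, GC correction or both, and 0 to 21 when a library was left out. For FAM3C KO against LIFR KO the count of 5 became 2 with median-ratio rescaling or an adjusted p under 0.05. It became 0 with the 2 groups alone or the replicate block, with or without GC correction. With GC correction it became 1, and 0 to 19 when a library was left out. On knockdown the count of 30 became 17 with the fold requirement, 31 with the block and 28 to 31 without 1 library, where the lone sample left is assumed to vary like the other group. Same-numbered clones did not deviate together (r of -0.19 to 0.15), so the numbers do not pair the samples. No named gene that was called in the main fit changed sign. Median-ratio rescaling moved the median log2 fold change of all genes in LIFR KO from -0.164 to -0.006. Depth is unknown on knockdown, and values under about 0.1 CPM cannot be ranked.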
